A study of Homo sapiens with 8 samples.

Results

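Long non-coding RNA (lncRNA) features with short loci are the 427 of 1321 features (32.3%) of a deposited lncRNA table whose locus, end minus start on build hg19, spans under 10000 bp. The choice used the locus alone and no expression value. The measurements come from hTERT-RPE1, human cells of retinal pigment epithelium that telomerase has made immortal, and address which RNAs are enriched with the protein hnRNP U. The 8 RNA sequencing libraries form 4 groups of 2: thymidine-arrested interphase cells without immunoprecipitation (IP), the same cells after IP with an anti-hnRNP U antibody, mitotic cells without IP, and mitotic cells after IP. All cells were held for 24 h in 2 mM thymidine, which blocks DNA replication. Mitotic cells were then kept for 6 h without thymidine and overnight in S-Trityl-L-cysteine (STLC), an inhibitor of the spindle motor Eg5. Mitotic and interphase cells therefore differ in drug history as well as in phase, and these cannot be told apart. All groups come from 1 cell line, and no control-antibody IP is among the data analysed here. The labels do not say whether replicates came from separate cultures, so p-values measure the spread between these libraries, which may be technical.

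hnRNP U, also called SAF-A, is an abundant nuclear protein that binds both RNA and DNA and is associated with chromatin in interphase. lncRNAs are transcripts that do not code for protein; many are spliced poorly or stay in the nucleus, and several are known to act at chromatin. A lower FPKM with IP means that an RNA makes up a smaller part of the precipitated RNA, not that it is unbound. The features carry assembly-style identifiers that the table does not pair with gene names, and no annotation or genome of build hg19 was used here. Features are therefore named by their position as the table gives it, and strand, exons and gene names are not stated.

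Levels are in FPKM, which divides fragments by the length of the transcript and by the size of the library, so levels of different features can be compared per length. The total number of fragments is unknown. The table holds 0 values of 0. The median of the 427 short-locus features lay between 8.57 and 10.9 FPKM in the 8 libraries, against 8.99 to 11.7 FPKM over all 1321 features. Averaged over libraries, 49 of the short-locus features reached at least 100 FPKM and 8 stayed under 1 FPKM, and 88 were under 1 FPKM in at least 1 library. In the deposited gene table, of 10 markers of pigment epithelium and of epithelial keratins, KRT18 (18.5 to 79.2 FPKM), KRT8 (19.0 to 58.9 FPKM), MITF (7.06 to 33.2 FPKM) and OTX2 (3.33 to 22.2 FPKM) were listed at these levels. PMEL stayed between 0.032 and 0.144 FPKM, and RPE65, BEST1, RLBP1, TYR and TYRP1 were not listed.

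Among the 5 short-locus features with the highest mean over the 8 libraries was one at chr20:47899318-47906138 (6820 bp). In interphase it measured 3709 and 4578 FPKM without IP and 418 and 577 FPKM with IP, and in mitosis 2326 and 2935 FPKM without and 523 and 534 FPKM with IP, in replicates 1 and 2. The IP libraries lay below those without IP in each phase and the groups did not overlap. The one with the highest mean, 1997 FPKM, at chr3:14984229-14990704 (6475 bp), measured 1758 and 1885 FPKM without and 3012 and 4089 FPKM with IP in interphase, and 1421 and 1692 FPKM without and 962 and 1159 FPKM with IP in mitosis. Its IP values were the higher ones in interphase and the lower ones in mitosis. Another, at chr13:21946592-21949150 (2558 bp), measured 696 and 863 FPKM without and 1723 and 2489 FPKM with IP in interphase, and 638 and 780.4 FPKM without and 1072 and 1257 FPKM with IP in mitosis. Its IP values were above those without IP in both phases. The 5 most abundant features made up 26.9% to 45.8% of the FPKM summed over the short-locus features of a library.

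The remaining pair among the 5 with the highest means did not have 1 level. The feature at chr15:53229040-53230760 (1720 bp) measured 62.9, 83.5, 50.8 and 44.0 FPKM in the first replicates of interphase without IP, interphase IP, mitosis without IP and mitotic IP. In the second replicates it measured 2349, 2701, 1428 and 1687 FPKM in the same order. One of 2 features listed at chr2:133011745-133013748 (2003 bp) went the other way, with 2881, 3308, 4506 and 3398 FPKM in the first replicates and 131, 144, 134 and 27.9 FPKM in the second. In both, the gap between replicates was far larger than any difference between groups, and it was present with and without IP and in both phases.

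This pattern was counted over all short-locus features, on the log2(FPKM + 1) scale used throughout. In 35 of 427 (8.20%), the replicates differed by at least 2-fold in the same direction in all 4 groups, against 87 of 1321 (6.59%) over all features. Replicate 2 was the higher one in 30 of the 35. In the other 5, replicate 1 was higher: both features at chr2:133011745-133013748, chr16:33962510-33964330, chr6:28953517-28959134 and chr9:72043163-72043637. The mean shift was at least 4 on the log2 scale in 11 of the 35. Features with shorter loci were shifted in larger shares: 35.0% of the 20 under 1000 bp, 12.9% of the 62 from 1000 bp, 14.3% of the 63 from 2000 bp, 4.12% of the 97 from 3000 bp and 3.78% of the 185 from 5000 bp to the threshold. Beyond 10000 bp the shares were 4.07% to 7.18%. Of the 49 short-locus features with a mean of at least 100 FPKM, 14 were shifted. Chromosome 16, with 26 of the 427, held 8 of the 35. Chromosome 15, with 23, held 5, and chromosomes 8 and 14, with 28 and 18, held 4 each. The log2 difference of the replicates had an SD across features of 1.18 to 1.28 in the 4 groups, and of 0.66 to 0.76 without these 35. The same SD in the gene table was 0.21 to 0.29. The cause of these shifts was not tested.

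**Figure D1:**
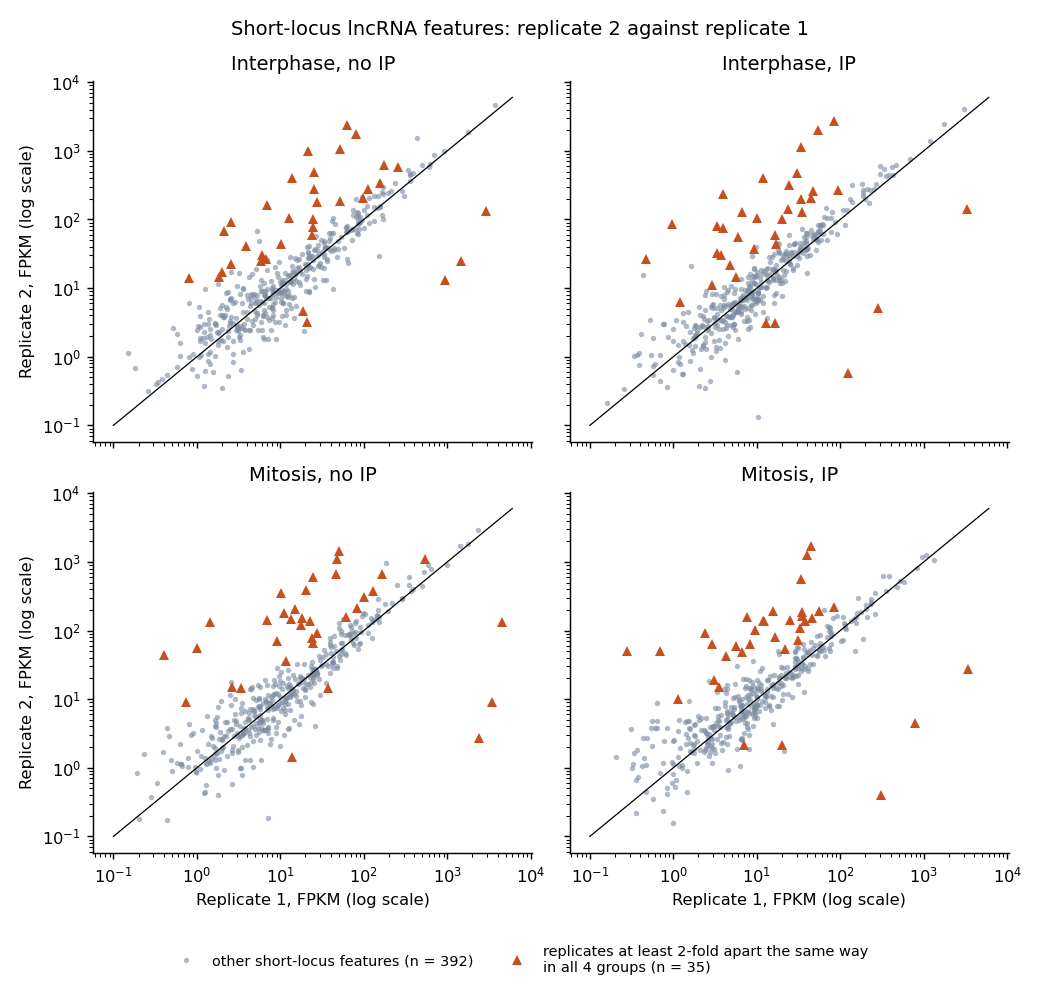
FPKM of the 427 short-locus features in replicate 2 (y axis, log scale) against replicate 1 (x axis, log scale), a panel for each of the 4 groups. Triangles are the 35 features whose replicates differ by at least 2-fold the same way in all groups, and they keep their side of the diagonal line of equality in each panel, while most circles (392 features) lie near it.

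In a shifted feature, the difference between IP and no IP could still have 1 sign in both replicates. Of the 35, 2 are given here as examples. At chr14:66367502-66368092 (590 bp), the first replicates gave 21.6 FPKM without IP and 3.93 FPKM with IP in interphase, and 10.2 and 2.88 FPKM in mitosis. The second replicates gave 986 and 232 FPKM in interphase, and 353 and 64.2 FPKM in mitosis. The values without IP were thus the higher ones in all 4 pairs, although the levels of the replicates were far apart. The other feature at chr2:133011745-133013748 gave 946 and 123 FPKM without and with IP in interphase replicate 1, and 12.9 and 0.575 FPKM in replicate 2. Its log2 difference in interphase was -2.93 in the first pair and -3.15 in the second, but limma, a linear model fitted across all 1321 features, gave an adjusted p of 0.686. In mitosis this feature gave 2397 and 310 FPKM without and with IP in replicate 1, and 2.71 and 0.402 FPKM in replicate 2. The mitotic pairs were less alike on the log2(FPKM + 1) scale, at -2.95 and -1.41. The added 1 exceeds the IP values of replicate 2 in both phases, so likeness on this scale is not likeness of FPKM ratios. Over all 35 shifted features the median log2 difference was -0.54 and -0.01 in the interphase pairs and -0.49 in each mitotic pair. None of the 35 shifted features was called in any of the 5 comparisons by this fit (0 of 35 in each). Over all features it was 0 of 87 in each. The rule picks features whose replicates lie far apart, which is the spread this fit uses, so the lack of calls was all but fixed. The results below therefore give each replicate pair beside the fit.

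The first comparison set the interphase IP against interphase cells without IP. Limma called 37 short-locus features higher and 44 lower in the IP at an adjusted p below 0.05 (Benjamini-Hochberg over the whole table). Over all 1321 features, 7.65% were called higher and 8.78% lower. The shares among the short-locus features, 8.67% and 10.3%, were close to these. The median log2 difference was -0.13 (-0.09 and -0.11 in the replicate pairs), against -0.02 over all features. All 81 calls had 1 sign in both pairs, as had all 217 over all features. A call with 2 libraries a group leaves little room for opposite signs, so this is not separate support. Without the 35 shifted features the median was -0.11. By the size of the difference alone, 40 of the 427 features were at least 2-fold higher in both pairs and 74 at least 2-fold lower. The same rule was met by 108 (8.18%) and 191 (14.5%) of all 1321 features. Differences of the 2 pairs correlated across the 427 features with Pearson's r of 0.72, a description over features that share libraries.

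Among the called features, the largest rise was at chr4:81213090-81222470 (XLOC_011679, 9380 bp). It measured 85.9 and 112 FPKM without IP and 462 and 616 FPKM in the IP. The IP libraries lay far above the others, with a log2 difference of 2.43 (standard error, SE, 0.23; limma adjusted p 0.0044; 2.42 and 2.45 in the pairs). Next was chr4:144146309-144151114 (XLOC_011806, 4805 bp), with 8.26 and 4.02 FPKM without IP and 24.0 and 41.9 FPKM in the IP. The groups did not overlap, but the pairs differed, at 1.43 and 3.10, and the limma adjusted p of 0.0349 passed the threshold in only 1 of 8 fits that left out 1 library. The feature at chr5:135521452-135524477 (3025 bp) rose from 0.633 and 1.57 FPKM to 8.86 and 8.38 FPKM, a log2 difference of 2.23 (SE 0.40, limma adjusted p 0.0181). This call was lost in 4 of 8 such fits.

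The largest called fall was at chr17:58160695-58166013 (XLOC_006569, 5318 bp). It measured 299.8 and 223 FPKM without IP and 19.8 and 12.0 FPKM in the IP, so both IP libraries were far below both others. The log2 difference was -3.98 (SE 0.49, limma adjusted p 0.00644, -3.86 and -4.10 in the pairs). At chr19:7980654-7984392 (XLOC_007002, 3738 bp) the values were 33.3 and 31.6 FPKM without IP and 3.08 and 1.72 FPKM with it. This was a log2 difference of -3.33 (SE 0.37, limma adjusted p 0.00603). At chr17:29417711-29423124 (5413 bp) they were 42.2 and 106 FPKM without IP and 6.88 and 6.71 FPKM with it. The IP replicates were nearly equal there and those without IP were not, and the log2 difference of -3.12 (SE 0.46, limma adjusted p 0.0106) was lost in 2 of 8 fits without 1 library. The abundant feature at chr20:47899318-47906138 was also called lower, by -3.07 (SE 0.22, limma adjusted p 0.00169, -3.15 and -2.99 in the pairs). Of the other abundant ones, chr13:21946592-21949150 was higher by 1.42 (limma adjusted p 0.0156) and chr3:14984229-14990704 by 0.95 (limma adjusted p 0.0315).

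The interphase counts depended on each compared library: without interphase replicates 1 or 2 without IP they were 7 or 6 higher and 16 or 15 lower, and without replicates 1 or 2 of the interphase IP 8 or 5 higher and 17 or 16 lower. Without replicate 1 or 2 of the mitotic IP, which enters only through the shared estimate of the spread, 21 were higher in either case.

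**Figure D2:**
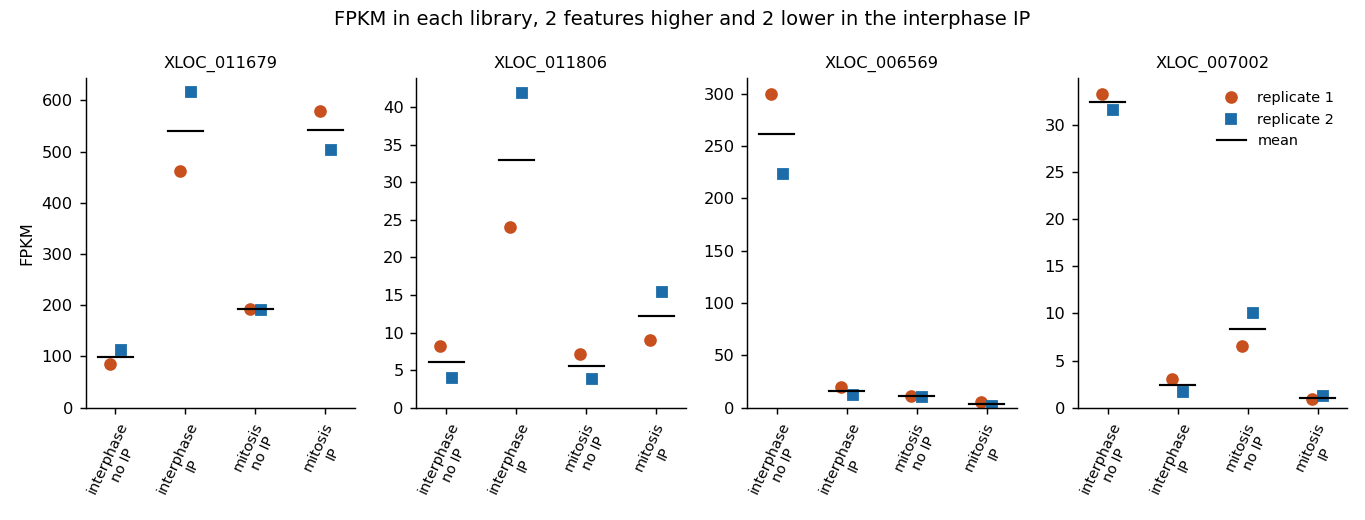
FPKM (y axis, from 0) in each library of the 4 groups (x axis) for 2 features called higher and 2 called lower in the interphase IP. Circles and squares are replicates 1 and 2 and the line is their mean. XLOC_011679 rises with IP in both phases, and XLOC_006569 is at 223 FPKM or above only in interphase without IP.

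In mitosis, limma called 4 short-locus features higher and 17 lower in the IP. Over all 1321 features, 1.21% were called higher and 2.8% lower, against 0.94% and 3.98% of the short-locus features. The median log2 difference was -0.05 (-0.11 and -0.04 in the pairs), against 0.04 over all features. At least 2-fold in both pairs, 22 of the 427 features were higher and 53 lower, against 69 (5.22%) and 111 (8.4%) of all 1321 features. Pairs correlated with r of 0.61 across the 427 features.

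The 4 that rose in the mitotic IP were chr4:39135532-39137228, chr4:81213090-81222470, chr2:114464369-114467816 and chr6:147708799-147711601, and all 4 were also called higher in the interphase IP. Over all features, 10 of 16 mitotic calls (62.5%) were shared in this way. The feature at chr4:39135532-39137228 (1696 bp) measured 27.5 and 24.3 FPKM without IP and 75.4 and 108 FPKM in the IP. Its log2 difference was 1.77 (SE 0.30, limma adjusted p 0.0322), and the call was lost in each of 8 fits without 1 library. The feature at chr4:81213090-81222470 went from 193 and 191 FPKM to 579.8 and 503 FPKM, with a log2 difference of 1.49 (SE 0.23, limma adjusted p 0.0272). The one at chr2:114464369-114467816 (3447 bp) went from 496 and 441 FPKM to 1336 and 1076 FPKM, and by 1.36 on the log2 scale (SE 0.19, limma adjusted p 0.0227). In interphase it had gone from 353 and 361 FPKM to 1172 and 1404 FPKM. The fourth, at chr6:147708799-147711601 (2802 bp), went from 63.9 and 85.5 FPKM to 159 and 177 FPKM.

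The largest falls in the mitotic IP were at chr17:29417711-29423124, chr16:69789312-69792242 and chr11:65430274-65439189. The first measured 23.7 and 27.4 FPKM without IP and 2.53 and 2.12 FPKM with it, a log2 difference of -3.00 (SE 0.46, limma adjusted p 0.0272). The feature at chr16:69789312-69792242 (2930 bp) measured 579.5 and 888 FPKM without IP and 69.4 and 116 FPKM with it. Its log2 difference was -2.98 in mitosis (SE 0.41, limma adjusted p 0.0227) and -0.72 in interphase (limma adjusted p 0.292), where the values were 353 and 467 FPKM without IP and 184 and 329.5 FPKM with it. The difference between the phases, -2.26 (SE 0.57), was not called by this fit (limma adjusted p 0.29). The feature at chr11:65430274-65439189 (8915 bp) was low in the IP in both phases: 48.4 and 48.7 FPKM without and 5.51 and 6.01 FPKM with IP in interphase, and 32.7 and 41.6 FPKM without and 5.30 and 5.47 FPKM with IP in mitosis. Its log2 differences were -2.88 (limma adjusted p 0.0044) and -2.57 (limma adjusted p 0.013).

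Of the 17 features that fell in the mitotic IP, 15 had also fallen in the interphase IP, which is 88.2% of the mitotic and 34.1% of the interphase list. Over all features these shares were 86.5% and 27.6%. The other 2 were chr16:69789312-69792242 and chr14:53618978-53624128. For neither was the difference between phases called by this fit (limma adjusted p 0.29 and 0.238). By size alone, 36 features were at least 2-fold lower in both pairs of both phases (48.6% of the interphase and 67.9% of the mitotic list) and 13 at least 2-fold higher (32.5% and 59.1%). Over all features the shares were 40.3% and 69.4% for lower values, and 28.7% and 44.9% for higher ones. None of these shares was tested against that of all features. The count of features at least 2-fold apart in both pairs in opposite directions in the 2 phases was 0. Without any 1 of the 4 mitotic libraries 0 were called higher and 0 lower. Without interphase replicates 1 or 2 without IP 0 were higher and 2 lower in either case, and without replicates 1 or 2 of the interphase IP 2 were higher and 6 or 7 lower.

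**Figure D3:**
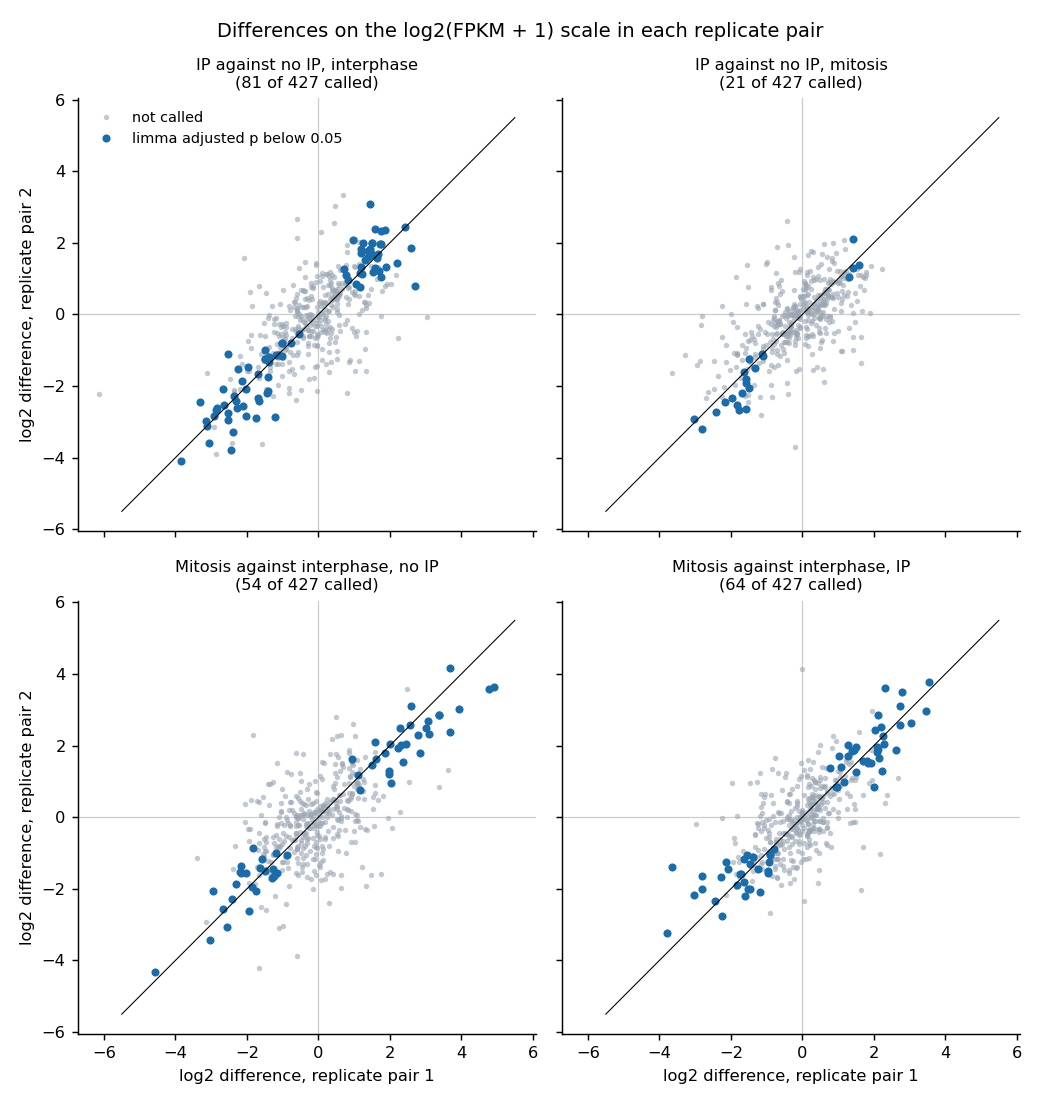
Log2 differences of the 427 short-locus features in replicate pair 2 (y axis) against pair 1 (x axis), on the log2(FPKM + 1) scale, for 4 comparisons; darker points are called by limma at an adjusted p below 0.05. Called points (81, 21, 54 and 64) lie in the lower left and upper right, where both pairs share a sign, which a call all but requires. The diagonal marks equal differences.

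Whether the effect of the IP differed between phases was tested as an interaction. Limma called 0 short-locus features in either direction and 0 of all 1321 (0.0%), with 50 short-locus features (149 of all) at an unadjusted p below 0.05. With replicate number added to the fit as a block, 0 were called higher and 5 lower, among them chr3:14984229-14990704 and chr16:69789312-69792242. The sample labels do not say that the numbers pair the libraries, though the authors' ratio columns divide libraries of the same number. The number of interaction calls therefore depends on this choice. Counts over all features with the block are not given here, and the values below are from the fit without the block. No other tool was run on this table. The pairs correlated weakly, with r of 0.25 across the 427 features. At least 2-fold in both pairs, 19 short-locus features had a larger log2 difference in mitosis and 17 a smaller one. Of all 1321 features, 74 (5.6%) had a larger and 61 (4.62%) a smaller one. The smallest p-values toward a larger log2 difference in mitosis belonged to chr11:573800-575885 (2085 bp) and chr2:3579402-3584463 (5061 bp). The first had 10.3 and 8.52 FPKM without IP and 1.31 and 0.567 FPKM with IP in interphase, and 1.52 and 2.68 FPKM without and 2.56 and 2.38 FPKM with IP in mitosis. Its interaction was 2.63 (SE 0.48, limma adjusted p 0.238). The second had 73.7 and 116 FPKM without and 17.3 and 15.4 FPKM with IP in interphase, and 112 and 91.1 FPKM without and 76.4 and 63.3 FPKM with IP in mitosis (interaction 1.90, SE 0.41, limma adjusted p 0.238).

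In the other direction stood the abundant feature at chr3:14984229-14990704 and the feature at chr14:53618978-53624128 (5150 bp). The former had log2 differences of 0.78 and 1.12 in the interphase pairs and -0.56 and -0.55 in the mitotic pairs. Its interaction was -1.50 (SE 0.29, limma adjusted p 0.238). The latter had 3.15 and 1.96 FPKM without and 3.01 and 5.22 FPKM with IP in interphase, and 6.97 and 7.69 FPKM without and 1.47 and 0.912 FPKM with IP in mitosis. Its interaction was -2.45 (SE 0.51, limma adjusted p 0.238).

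Mitosis was next compared with interphase in the RNA without IP. This comparison shares its interphase libraries with the interphase IP comparison and its mitotic ones with the mitotic IP comparison. In RNA of whole cultures, fewer cells with a transcript and less of it per cell cannot be told apart. Limma called 30 short-locus features higher and 24 lower in mitosis, which is 7.03% and 5.62% of them, against 6.89% and 5.3% of all features. The median log2 difference was -0.13 (-0.08 and -0.04 in the pairs), against -0.15 over all features. At least 2-fold in both pairs, 38 short-locus features were higher and 48 lower, against 124 (9.39%) and 130 (9.84%) of all 1321 features.

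The largest rises without IP were at chr5:135521452-135524477, chr8:129000922-129004320 and chr1:67861004-67869386. The first rose from 0.633 and 1.57 FPKM in interphase to 48.3 and 30.9 FPKM in mitosis, a log2 difference of 4.27 (SE 0.40, limma adjusted p 0.00341, 4.92 and 3.63 in the pairs). The second (3398 bp) rose from 2.47 and 6.92 FPKM to 93.7 and 94.2 FPKM, by 4.18 (SE 0.45, limma adjusted p 0.00551). The third (8382 bp) rose from 1.45 and 0.773 FPKM to 30.5 and 30.8 FPKM, by 3.92 (SE 0.33, limma adjusted p 0.00341). In all 3 the interphase values were at most 6.92 FPKM, and the mitotic replicates were both above 30 FPKM. These 3 calls held in each of 8 fits without 1 library.

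The largest falls without IP were at chr17:58160695-58166013, chr16:66442421-66447037 and chr8:134584413-134586014. The first went from 299.8 and 223 FPKM to 11.6 and 10.2 FPKM, a log2 difference of -4.45 (SE 0.49, limma adjusted p 0.00551). The second (4616 bp) went from 40.7 and 64.3 FPKM to 4.06 and 5.12 FPKM (-3.23, SE 0.50, limma adjusted p 0.0164). The third (1601 bp) went from 25.4 and 13.8 FPKM to 3.51 and 0.775 FPKM. The difference at that locus of -2.80 (SE 0.56, limma adjusted p 0.0289) lost the threshold in each of 8 fits without 1 library, and at chr16:66442421-66447037 the call was lost in 4 of 8. The counts without interphase replicates 1 or 2 without IP were 12 or 16 higher and 2 lower in either case, and without replicates 1 or 2 of mitosis without IP 9 or 11 higher and 3 lower in either case. Without replicate 1 or 2 of the interphase IP, 14 were lower in either case. With each library centred on its median, 29 were higher and 15 lower.

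A feature chosen after its values were seen, at chr6:86387597-86388411 (814 bp), had close replicates throughout. It measured 627 and 651 FPKM in interphase and 1783 and 1801 FPKM in mitosis without IP, and 433 and 448 FPKM in interphase and 827 and 809 FPKM in mitosis in the IP. It was called higher in mitosis without IP, by 1.49 (SE 0.14, limma adjusted p 0.00341), and in the IP, by 0.89 (limma adjusted p 0.0135). It was called lower in the IP than without it in interphase, by -0.54 (limma adjusted p 0.0472), and in mitosis, by -1.13 (limma adjusted p 0.0197).

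Within the IP, limma called 35 short-locus features higher and 29 lower in mitosis than in interphase. These are 8.20% and 6.79% of them, against 8.33% and 6.36% of all features. The median log2 difference was -0.02 (-0.01 and -0.08 in the pairs), against -0.04 over all features. At least 2-fold in both pairs, 47 short-locus features were higher and 42 lower, against 145 (11.0%) and 126 (9.54%) of all 1321 features. The IP of mitotic cells does not separate the amount of an RNA from its enrichment, so these values stand beside those without IP.

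The largest rise in the IP was at chr13:45949068-45955297 (6229 bp), from 5.41 and 6.25 FPKM to 73.6 and 99.3 FPKM, by 3.67 (SE 0.37, limma adjusted p 0.00644). Without IP it measured 1.89 and 4.10 FPKM in interphase and 43.3 and 40.6 FPKM in mitosis. The feature at chr5:135521452-135524477 rose in the IP from 8.86 and 8.38 FPKM to 109 and 71.7 FPKM, by 3.22 (SE 0.40, limma adjusted p 0.00732). The one at chr8:129000922-129004320 rose from 21.7 and 12.8 FPKM to 155 and 156 FPKM, by 3.15 (SE 0.45, limma adjusted p 0.0109). These 3 had mitotic values far above both interphase values with and without IP.

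The largest falls in the IP were at chr16:66442421-66447037, chr9:125699901-125702605 and chr5:179719171-179722328. The first went from 40.1 and 62.6 FPKM to 1.95 and 5.74 FPKM, by -3.52 (SE 0.50, limma adjusted p 0.0109). Its values with and without IP were nearly the same in interphase, with log2 differences of -0.02 and -0.04 in the pairs. The second (2704 bp) went from 33.2 and 37.5 FPKM to 3.18 and 7.54 FPKM (-2.60, SE 0.59, limma adjusted p 0.0362), and the third (3157 bp) from 17.1 and 8.59 FPKM to 0.432 and 2.69 FPKM (-2.52, SE 0.57, limma adjusted p 0.0358). The calls at chr9:125699901-125702605 and chr5:179719171-179722328 were lost in 6 and 7 of 8 fits without 1 library. The counts were 0 higher and 0 lower without replicate 1 of the mitotic IP, 12 and 6 without its replicate 2, and 10 and 3 or 5 and 2 without replicate 1 or 2 of the interphase IP. Of the libraries without IP, the count of lower features was 16 without interphase replicate 1 or 2 and 18 without mitosis replicate 1, and the count of higher features was 23 without mitosis replicate 2.

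The effect of the IP was then described by locus span within the short-locus features. The 20 features under 1000 bp had a median log2 difference of -0.87 in interphase (-0.98 and -0.82 in the pairs) and of -1.30 in mitosis (-1.22 and -1.14). In interphase 14 of the 20 were lower with IP in both pairs and 1 was higher in both, and in mitosis 15 and 3. Of the 20, 10 were at least 2-fold lower in both interphase pairs and 0 higher, against 14.5% and 8.18% of all 1321 features. In the mitotic pairs 11 were lower and 1 higher by this rule, against 8.4% and 5.22%. These shares were not tested against those of all features. The 62 features from 1000 bp had medians of -0.28 and -0.24 in the interphase pairs and -0.27 and -0.14 in the mitotic pairs. From 2000 bp to the threshold the class medians of the pairs lay between -0.05 and 0.13 in interphase and between -0.18 and 0.09 in mitosis. In the longest class, over 50000 bp, they were 0.06 and 0.14 in interphase and 0.17 and 0.19 in mitosis. Spearman's rho of span with the effect over the 427 features was 0.09 and 0.06 in the interphase pairs and 0.15 and 0.20 in the mitotic pairs. These are descriptions across features that share libraries, and span is not transcript length.

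Other values moved with span. Mean FPKM was lower at longer spans among the short-locus features (rho -0.34), and the class under 1000 bp had a median of 70.7 FPKM against 7.71 FPKM for the class from 5000 bp. Shifted features made up 35.0% of the class under 1000 bp. Without its 7 shifted features, the median of the remaining 13 was -0.57 in interphase (-0.74 and -0.54 in the pairs) and -0.72 in mitosis (-0.59 and -0.84). The part of level in the relation was not tested.

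Limma called 5 of the 20 features under 1000 bp lower in the interphase IP and 0 higher, against 8.78% and 7.65% of all 1321 features. The 5 were chr17:67703231-67703684, chr15:80236829-80237744, chr1:201433510-201434274, chr14:21190534-21191408 and chr6:86387597-86388411. In the mitotic IP the 2 called lower were chr14:21190534-21191408 and chr6:86387597-86388411, against 2.8% called lower over all features. The feature at chr14:21190534-21191408 (874 bp) measured 63.5 and 65.1 FPKM without IP and 27.3 and 28.9 FPKM with IP in interphase, and 139 and 149 FPKM without and 54.9 and 52.3 FPKM with IP in mitosis. Its log2 differences were -1.17 (SE 0.19, limma adjusted p 0.0147) and -1.41 (SE 0.19, limma adjusted p 0.0227), and its 2 values in each group were nearly equal.

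**Figure D4:**
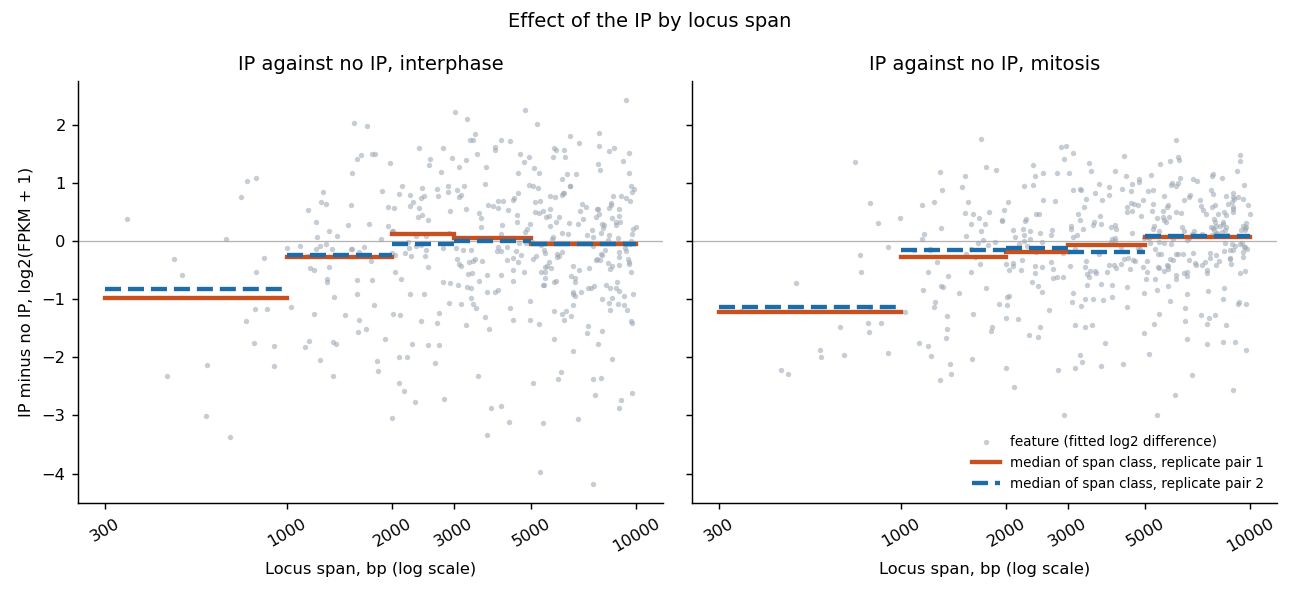
Fitted log2 difference of IP minus no IP (y axis, log2(FPKM + 1) scale) against locus span in bp (x axis, log scale) for the 427 short-locus features, in interphase (left) and mitosis (right). Horizontal lines are medians of 5 span classes in replicate pair 1 (solid) and pair 2 (dashed); they lie between -1.22 and -0.82 under 1000 bp and between -0.18 and 0.13 from 2000 bp.

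The 3 features with the shortest loci differed among themselves. The shortest, at chr6:57840491-57840839 (348 bp), was shifted between replicates. It measured 6.11, 3.89, 13.5 and 5.71 FPKM in the first replicates of interphase without IP, interphase IP, mitosis without IP and mitotic IP, and 30.4, 75.8, 149 and 60.0 FPKM in the second. At chr17:67703231-67703684 (453 bp) the values without IP were 42.2 and 64.1 FPKM in interphase and 51.8 and 36.6 FPKM in mitosis. With IP they were 11.9 and 7.76 FPKM and 4.38 and 16.3 FPKM, below every value without IP, and only the interphase difference passed the threshold (-2.32, SE 0.59, limma adjusted p 0.0472, against -2.21 and 0.0909 in mitosis). At chr9:72043163-72043637 (474 bp) they were 18.6 and 4.62 FPKM without and 16.6 and 3.08 FPKM with IP in interphase, and 37.0 and 14.5 FPKM without and 6.95 and 2.15 FPKM with IP in mitosis, with log2 differences of -2.26 and -2.30 in the mitotic pairs.

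At the threshold of 10000 bp the features on either side were of low or moderate level. Just inside, chr15:93322997-93332988 (9991 bp) ranged from 0.671 to 3.90 FPKM over the 8 libraries and chrX:134141853-134151748 (9895 bp) from 2.59 to 6.52 FPKM. Just outside, chr17:38081020-38091020 (10000 bp) ranged from 0.178 to 0.847 FPKM and chr19:44395956-44405959 (10003 bp) from 7.44 to 35.2 FPKM.

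Short-locus features lay on 23 chromosomes, with a median span of 4312 bp, against 19620 bp over all features. They made up 51.0% of the features of chromosome 16 and 50.0% of those of chromosome 8, and 18.8% of those of chromosome 13. They were mostly isolated, with a median of 1622781 bp to the nearest other one. Only 10 of the 427 shared their whole locus with another feature, at 5 loci, so that reads may have been divided between them and their values are uncertain. At chr10:99472737-99479260 (6523 bp) one of the features measured 923 and 993 FPKM in interphase without IP and 353 and 433 FPKM with IP, a log2 difference of -1.29 (limma adjusted p 0.00858). The other ranged from 0.156 to 2.67 FPKM over the 8 libraries. At chr8:1706366-1712507 (6141 bp) the 2 features had log2 differences of opposite sign with IP in interphase. One went from 170 and 101 FPKM to 59.2 and 50.2 FPKM (-1.25, limma adjusted p 0.0472), and the other from 0.578 and 0.719 FPKM to 1.84 and 1.91 FPKM (0.81, limma adjusted p 0.0552, not past the threshold). At chr2:133011745-133013748 both features were among the shifted ones.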

How the data were processed

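RNA of 8 libraries was deposited as FPKM, 1 column a library, per the file headers. The authors' 6 ratio columns, per the file headers quotients of FPKM columns of the same replicate, were recomputed and matched within a relative difference of 1e-06. TopHat and StringTie, and the builds hg19 and hg38, are named in the submitters' processing notes without roles. Libraries were directional and depleted of ribosomal RNA, per the labels' protocols. How reads shared by several loci were treated is not given in the sources used here. Depth is unknown: among features below 5 FPKM in both libraries, 12 to 38 shared the commonest ratio of a library to the first, but multiples of it were also frequent, so relative depth was not settled and no interval is given.

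Limma (version 3.58.1, R 4.3.3; lmFit, eBayes with trend) was fitted to log2(FPKM + 1) of all 1321 features and 8 libraries, 1 coefficient a group, 4 residual degrees of freedom, no filter. P-values were adjusted by Benjamini-Hochberg within each of 5 comparisons, and calls have an adjusted p below 0.05. Differences are those of log2(FPKM + 1) and are too small for features of low level. The script was tested on simulated data with independent noise and changes in the interphase IP only. That test did not cover replicate shifts shared by the 4 groups. The rule of at least 2-fold in both replicate pairs was added after seeing the data.

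Named features are the 3 largest calls in each direction with 1 sign in both pairs (without calls, the 2 smallest p), the 5 highest means, the 3 shortest loci and those at the threshold. Further features were named where a short list needed it or as said there. Members, lists and rules were chosen with earlier results of these data known. Alternatives were a pseudocount of 0.1, a mean of at least 1 FPKM, median centring, quantile normalization, a replicate block and leaving out each library. Positions are printed as in the table, whose first-base convention is not stated.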

Additional observations from a re-analysis of the deposited data

How the results depend on the processing

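When replicate number was added to the fit as a block, the interphase IP had 76 short-locus features lower, the mitotic IP 17 higher and 49 lower, mitosis without IP 57 higher and 59 lower, and the mitotic against the interphase IP 50 lower; each list contained all calls of the fit without the block. The shifted short-locus features gave 8, 9, 12 and 4 calls in these comparisons with the block. Over the whole table, the 87 shifted features gave 24, 16, 21 and 16. The interaction with the block called 5 short-locus features lower in mitosis: chr14:43769417-43770085, chr15:63245337-63246730, chr15:79851626-79852914, chr16:69789312-69792242 and chr3:14984229-14990704. Apart from the shifted features, calls over the whole table with the block are not given here. Whether the added calls are particular to short loci was therefore not tested. The sample labels do not say that the numbers pair the libraries, though the authors' ratio columns divide libraries of the same number. Replicate differences of the 4 groups correlated across the 427 features at 0.65 to 0.75, and across the 392 without shifted features at 0.00 to 0.20. Shifted features were picked for differences in the same direction in all 4 groups, so leaving them out lowers these correlations by construction. The lower values therefore do not show whether the numbers pair the libraries.

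Quantile normalization left 0 higher and 2 lower in the mitotic IP, so the share of higher calls was 0% against 19.0%. Median centring gave 15 lower in mitosis without IP, and the share of higher calls was 65.9% against 55.6%. It moved the median of all features by 0.14 in the interphase IP and by -0.13 in the interaction, and quantile normalization by 0.12 in the interphase IP. The median of the short-locus features in the interphase IP became 0.01 under centring. In fits without 1 library (3 residual degrees of freedom), interphase IP calls ranged from 5 to 28 higher and 15 to 35 lower, mitotic IP calls from 0 to 2 and 0 to 7, mitosis without IP from 9 to 26 and 2 to 17, and mitosis within the IP from 0 to 25 and 0 to 20. The pseudocount of 0.1 and the filter kept each count within 1.5 times. The alternatives were run on 28 differences of the features named as largest or as having the smallest p, and none of these 28 changed sign. The other differences printed were not run. Fewer libraries give fewer calls by construction, and the cause of the other changes was not tested.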
